A study of Mus musculus with 6 samples.

Results

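The 10 genes described here encode enzymes of glycolysis: Hk1 and Hk2 (hexokinases), Gpi1 (glucose-6-phosphate isomerase), Pfkl and Pfkp (the liver and platelet types of phosphofructokinase), Aldoa (aldolase A), Pgk1 (phosphoglycerate kinase), Eno1 (alpha-enolase), Pkm (the muscle-type pyruvate kinase gene) and Ldha (lactate dehydrogenase A). They were picked by symbol as rows of the deposited RNA count table, and the rule itself uses no measured value, although the list was drawn up with earlier results of these data known. All 10 were found among the 24516 gene symbols of the table, and all 10 passed the filter on low counts, which kept 13427 genes. RNA was sequenced after poly(A) selection from iMGT-Myh6-eGFP-MEF cells, a mouse embryonic fibroblast line with an eGFP reporter whose name refers to Myh6, the gene of cardiac alpha-myosin. In every group, 1 ug/mL doxycycline had switched on Mef2c, Gata4 and Tbx5 (MGT), transcription factors that are used together to turn fibroblasts towards cardiomyocyte-like cells. The groups differed in the siRNA transfected on the day before doxycycline: siControl, siJunb against Junb, one partner in AP-1 transcription factor dimers, or siH1f0 against H1f0, the linker histone H1.0. Each group had 2 libraries, and all 3 groups carried both the induced factors and a transfected siRNA. The sample labels place the harvest at day 1 after induction and the series description at day 3, after sorting of GFP-positive cells, and the groups are the same under both. All libraries come from 1 line, and the labels call the libraries of a group biological replicates without saying whether they came from separate inductions, so the p-values measure the spread between these libraries.

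Glycolysis splits glucose into pyruvate in the cytosol and yields ATP and NADH. Hexokinase traps glucose as glucose-6-phosphate, phosphofructokinase commits the sugar to breakdown, and pyruvate kinase makes the last ATP; these are the steps at which the pathway is mainly controlled. Lactate dehydrogenase A turns pyruvate into lactate and regenerates NAD+, and fibroblasts in culture are known for high glycolysis, whereas the heart takes most of its ATP from mitochondrial oxidation. Hypoxia-inducible factors and Myc are textbook activators of these genes.

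Promoter sequence is shown for the members that were called in at least 1 comparison below and hold one of the motifs searched, with 1 or 2 matches each chosen after the values were seen, because hypoxia-inducible factors bind ACGTG or GCGTG, Myc and its relatives bind CACGTG, and AP-1, of which Junb is a part, binds TGANTCA. RefSeq promoters (GRCm38.p6, 250 bases before to 50 after each start site) were held for all 10 members, 17 promoters in all, and both strands were searched. The lines give 30 bases around a match on the strand of the gene, 5′ to 3′, with the match in capitals; CACGT is ACGTG, and CACGC is GCGTG, read from the other strand.
Aldoa, TGANTCA at -218 (chr7:126799454-126799483, minus strand): cacattccggcTGAGTCAcgatgttcgcgc
Aldoa, ACGTG at -126 (chr7:126799363-126799392, minus strand): tgtggctcgagtCACGTcctagcggggcgg
Ldha, CACGTG at -145 (chr7:46845647-46845676, plus strand): ggtgtcgcagcaCACGTGgagccactcttg
Ldha, CACGTG at -48 (chr7:46845744-46845773, plus strand): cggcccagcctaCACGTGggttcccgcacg
Pkm, ACGTG at -75 (chr9:59657140-59657169, plus strand): ctccgatccggtCACGTccgcgccgcagca
Pgk1, ACGTG at -150 (chrX:106186938-106186967, plus strand): gcgtcgtgcaggACGTGacaaatggaagta
Hk2, ACGTG at -52 (chr6:82774489-82774518, minus strand): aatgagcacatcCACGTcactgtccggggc
Pfkp, GCGTG at -68 (chr13:6648822-6648851, minus strand): ggccccgcccttGCGTGagtcccgcccatc
Pfkl, GCGTG at -99 (chr10:78009889-78009918, minus strand): atttgtagactgGCGTGcgctccgcctttc
Eno1, GCGTG at -86 (chr4:150237099-150237128, plus strand): ggccgcctcggtCACGCtcttctattggag

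ACGTG stood in 7 of the 17 promoters, those of Hk1, Hk2, Aldoa, Pgk1, Pkm and Ldha, and in 19.6% of all 32851 RefSeq promoters of the same length. GCGTG stood in 8 of the 17, those of Hk1, Pfkl, Pfkp, Eno1 and Ldha, and in 32.4% of all promoters. CACGTG, which holds ACGTG on both strands, was found in 1 of the 17, an Ldha promoter that carries it at both positions printed above (7.15% of all promoters). TGANTCA was found in 1 of the 17, an Aldoa promoter (7.81% of all promoters). Of the phosphofructokinase pair, neither promoter held ACGTG in this window, and both held GCGTG. Some promoters of a gene overlap, so the printed ACGTG site of Aldoa and the printed GCGTG site of Eno1 are each counted in more than 1 promoter. For the printed Ldha and Pkm promoters, the 50 bases after the start site were not found in a GENCODE transcript of the gene. These matches describe the letters of the windows and are not measured binding sites.

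Library totals ran from 48690447 to 85979630 counts, and the 10 members together took 0.304% to 0.357% of the counts. Levels below are TMM-scaled CPM, that is, counts scaled to a common library size (CPM) after correction by edgeR's TMM factors (0.979 to 1.02). The siRNA targets followed their labels: Junb stood at 39.1 and 35.7 CPM in siControl, 10.7 and 8.89 in siJunb, and 29.97 and 31.1 in siH1f0, and H1f0 at 798 and 742, 666 and 650.5, and 51.6 and 54.4. H1f0 was also lower in siJunb than in siControl (log2 -0.23, SE 0.05; edgeR adjusted p = 0.021). The first siControl library stood apart from the second: Mef2c was 353.5 against 709 CPM, Gata4 844 against 1411 and Tbx5 1858 against 2554. In the siJunb and siH1f0 libraries these factors ran from 714 to 792.5, 1343 to 1480 and 2389 to 2620 CPM. The part of these factors in the differences was not tested. Chi-square per degree of freedom between the paired libraries was 74.6 in siControl, 3.80 in siJunb and 3.85 in siH1f0. Counting noise alone gives about 1. The ribosomal precursor RNA Rn45s was 18760 CPM in the first siControl library and 6286 in the second, against 5081 to 6684 in siJunb and 3040 to 3423 in siH1f0, and its part in the differences was not tested. Each member's difference from siControl is therefore also given without that library. With 1 siControl library left, the p-values rest on the spread within the knockdown pairs alone. A pass against siControl in such a fit is not read as evidence of a change. Of the fibroblast markers 9 of 10 passed the count filter (11210 to 13290 CPM summed; Thy1 had 1 count in 1 library), and of the cardiomyocyte markers 7 of 10 (120.8 to 168 CPM summed; Actn2, Ryr2 and Pln were at most at 16 counts). The leukocyte list summed to 11.7 to 15.7 CPM, most of it Cd14, with Ptprc at 0 in all 6 libraries, and the epithelial markers Krt8 and Krt18 were also at 0.

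With Junb knocked down, Aldoa, Ldha, Pfkp and Pkm rose and Pfkl fell against siControl. Thus 5 of the 10 members were called at an edgeR adjusted p under 0.05, where 16.5% of all tested genes were called. The 4 higher members stand beside 8.63% of all genes called higher, and the 1 lower beside 7.82% called lower. Of the 5127 genes with a mean of at least 50 CPM, a level that 9 of the 10 members reach, 21.9% were called. The members' median log2 difference was 0.18, beside 0.0024 over all tested genes. The siControl and siJunb libraries did not overlap for any of the 10 members, where 58.0% of all tested genes did not overlap. Of the 10, 9 were higher in siJunb (29.6% of all genes) and 1 lower (28.4% of all genes). Aldoa had the largest difference among the called members, 34.7% above siControl.

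With H1f0 knocked down, Hk2 fell by 24.4% and was the only member of the 10 called, where 6.55% of all tested genes were called (2.27% higher, 4.27% lower; 8.80% of genes with at least 50 CPM). The median log2 difference of the members was -0.0036, beside 0.0034 over all genes. For 6 of the 10 members the libraries did not overlap, where 50.6% of all tested genes did not overlap, 3 higher (25.4% of all genes) and 3 lower (25.2% of all genes). Both comparisons use the same siControl libraries, so the groups were also compared with each other directly. In siH1f0 against siJunb, 5 members were lower (Hk2, Gpi1, Aldoa, Pgk1 and Eno1) and 1 was higher (Pfkl), where 25.9% of all tested genes were called (12.2% higher, 13.8% lower; 33.7% of genes with at least 50 CPM). The members' median log2 difference there was -0.16, beside 0.0007 over all genes, and the libraries did not overlap for any of the 10, where 71.7% of all tested genes did not overlap. Of these 10, 1 was higher (35.4% of all genes) and 9 lower (36.3% of all genes) in siH1f0. With total counts in place of TMM scaling, 4 members were called in siJunb, 1 in siH1f0 and 4 in the direct comparison, beside 16.8%, 6.99% and 26.5% of all genes.

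**Figure D1:**
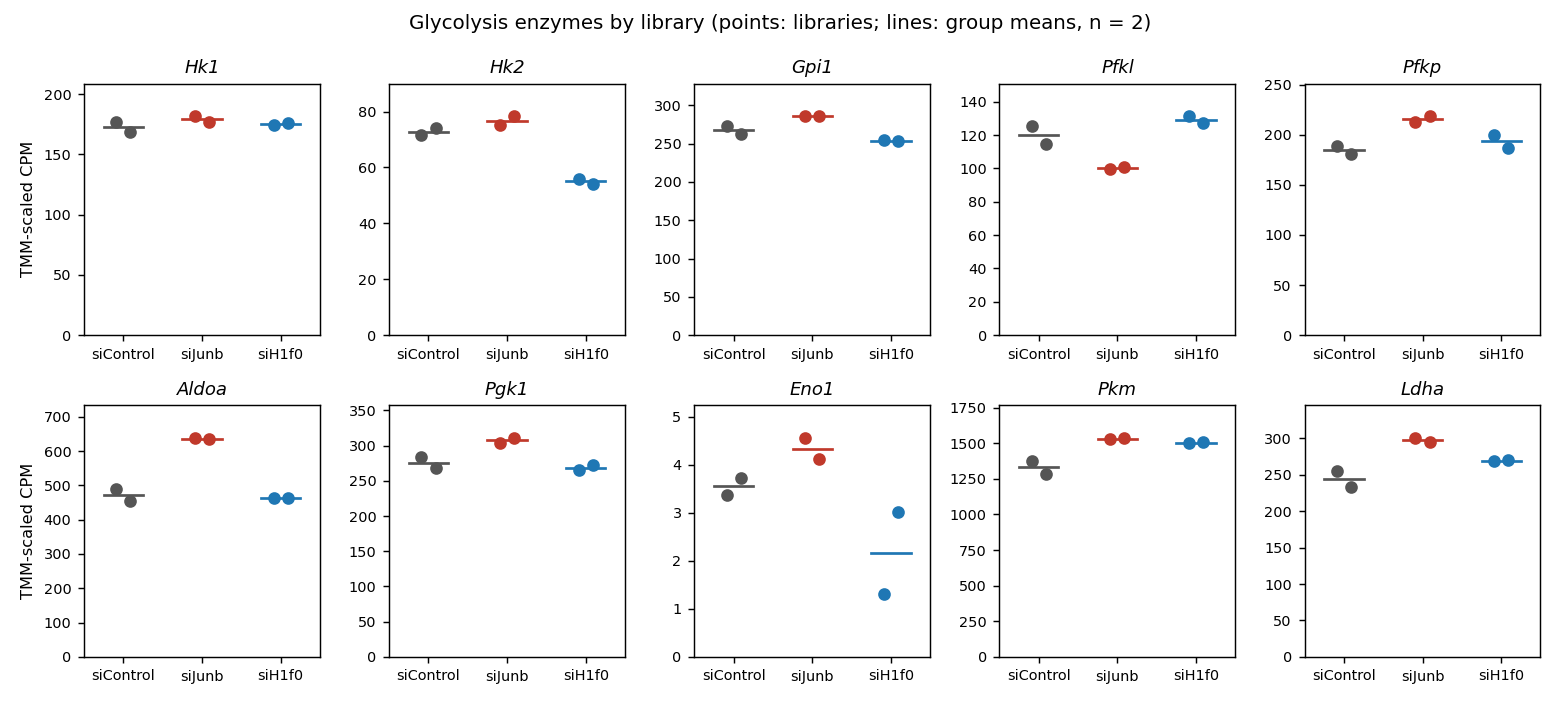
Level of each of the 10 glycolysis enzymes in TMM-scaled CPM (vertical axes, each starting at 0) in the siControl, siJunb and siH1f0 libraries; points are libraries and lines are the means of 2. Aldoa stands at 638 and 636 in siJunb against 456 to 490 in the other libraries, and Hk2 at 55.9 and 54.3 in siH1f0 against 71.7 to 78.3 elsewhere.

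**Figure D2:**
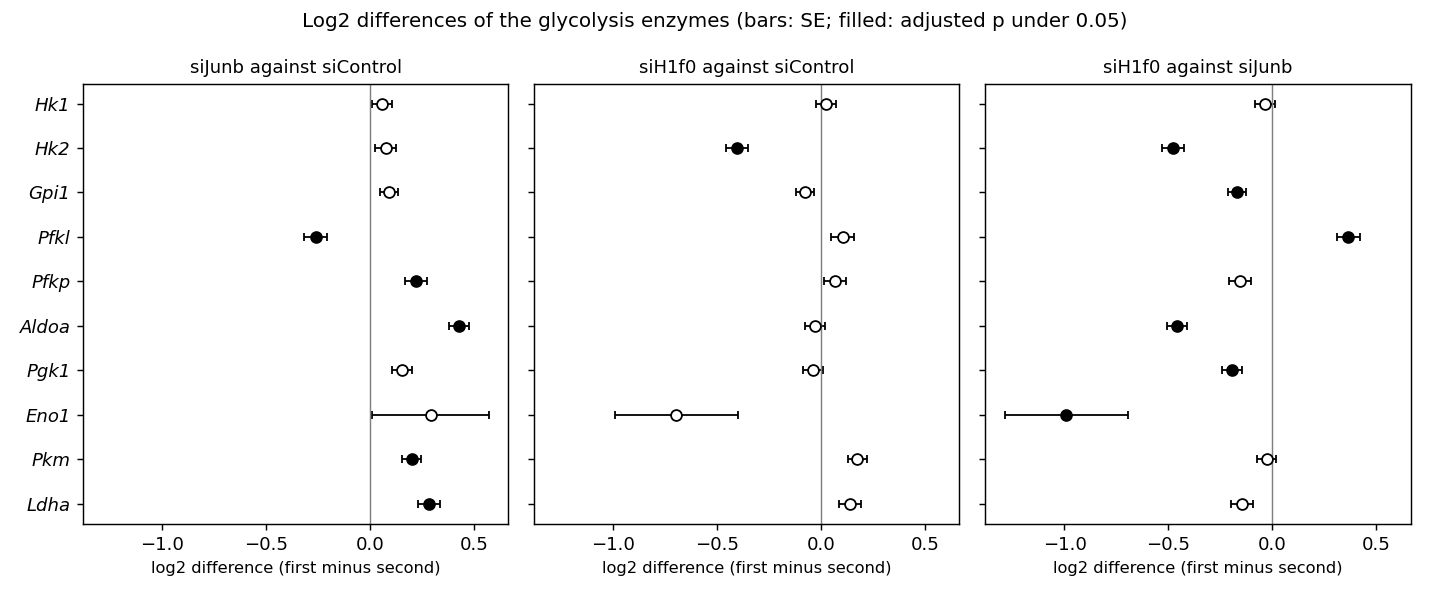
Log2 difference of each member in the 3 comparisons (horizontal axis, first group minus second; bars, SE; filled points, edgeR adjusted p under 0.05). Filled points are Pfkl, Pfkp, Aldoa, Pkm and Ldha for siJunb, Hk2 alone for siH1f0, and Hk2, Gpi1, Pfkl, Aldoa, Pgk1 and Eno1 in the direct comparison.

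Hexokinase is represented by Hk1 (chr10:62268855-62379920, minus strand; coordinates here and below are RefSeq genes on GRCm38.p6) and Hk2 (chr6:82725025-82774454, minus strand). Hk1, the broadly expressed housekeeping form, was the steadiest member, with the highest library only 1.08 times the lowest. It stood at 177 and 168 CPM in siControl, 181.5 and 177 in siJunb, and 174 and 176 in siH1f0. With all 6 libraries no comparison called it: the log2 difference was 0.06 (SE 0.05; edgeR adjusted p = 0.454) for siJunb and 0.02 (SE 0.05; edgeR adjusted p = 0.824) for siH1f0. With the first siControl library left out these were 0.09 and 0.06. Hk2, the form that is induced in growing and insulin-stimulated cells, stood at 71.7 and 74.0 CPM in siControl, 75.2 and 78.3 in siJunb, and 55.9 and 54.3 in siH1f0. Both siH1f0 libraries lay below all the other 4, and the siControl and siJunb pairs lay close together. The fall in siH1f0 was -0.40 on the log2 scale against siControl (SE 0.05; edgeR adjusted p = 0.00348) and -0.48 against siJunb (SE 0.05; edgeR adjusted p = 0.000416). The siJunb difference from siControl was 0.07 (SE 0.05; edgeR adjusted p = 0.362). Without the first siControl library the differences from siControl were -0.43 for siH1f0 and 0.05 for siJunb. The call against siControl was lost when either siH1f0 library was left out (edgeR adjusted p up to 0.0843), whereas the call against siJunb held under all 13 alternatives.

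Levels of different genes were compared per kilobase of the length given in the deposited table. On that scale Hk1 made up 74.1% ± 1.04 of all hexokinase in siControl, 74.0% ± 0.895 in siJunb and 79.4% ± 0.434 in siH1f0 (SD, n = 2). Hk2 made up nearly all the rest, 25.6% ± 1.10, 25.9% ± 0.860 and 20.4% ± 0.441. The Hk2 to Hk1 ratio per kilobase was 0.346 in siControl, 0.350 in siJunb and 0.257 in siH1f0, and the siH1f0 libraries (0.262 and 0.2525) lay below the other 4 (0.332 to 0.3615). Hk3 and Hkdc1 each stayed under 1% of the step. Shares of this kind were given no test, since with 2 libraries in each group the smallest p of an exact permutation test is 0.333 (two-sided).

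Gpi1 (chr7:34201327-34230336, minus strand) interconverts glucose-6-phosphate and fructose-6-phosphate. Its level was 273 and 263 CPM in siControl, 286 in both siJunb libraries and 254 in both siH1f0 libraries. The siJunb pair was above and the siH1f0 pair below the siControl pair, with no overlap. Neither difference from siControl passed the test, 0.09 for siJunb (SE 0.04; edgeR adjusted p = 0.192) and -0.08 for siH1f0 (SE 0.04; edgeR adjusted p = 0.345). Leaving out the first siControl library gave a siJunb difference of 0.12 and a siH1f0 difference of -0.05. Without the second siControl library the siH1f0 difference was -0.11. Set against each other, siH1f0 was lower than siJunb by -0.17 on the log2 scale (SE 0.04; edgeR adjusted p = 0.0238), and that call was lost when any siJunb or siH1f0 library was left out, with total counts only and with a replicate block (edgeR adjusted p up to 0.189).

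The phosphofructokinase genes moved in opposite directions in siJunb. Pfkl (chr10:77986947-78009807, minus strand) stood at 125.5 and 115 CPM in siControl, 99.7 and 101 in siJunb, and 131 and 127 in siH1f0. Pfkp (chr13:6579874-6649060, minus strand) stood at 189 and 181 in siControl, 213 and 218 in siJunb, and 200.1 and 187 in siH1f0. For Pfkl the siJunb libraries were the lowest of the 6, and for Pfkp they were the highest. Pfkl fell by 0.26 on the log2 scale in siJunb (SE 0.06; edgeR adjusted p = 0.0163), and Pfkp rose by 0.22 (SE 0.05; edgeR adjusted p = 0.023). These differences were -0.20 and 0.25 without the first siControl library. Both calls were lost when any siJunb or siH1f0 library was left out and with only the 4 libraries compared (edgeR adjusted p up to 0.155 for Pfkl and 0.198 for Pfkp), while the sign held under all 13 alternatives. In siH1f0, Pfkl differed from siControl by 0.11 (SE 0.06; edgeR adjusted p = 0.303) and Pfkp by 0.07 (SE 0.05; edgeR adjusted p = 0.496). With the first siControl library left out these were 0.17 and 0.10. Between the knockdowns, Pfkl was higher in siH1f0 than in siJunb by 0.37 (SE 0.06; edgeR adjusted p = 0.00205), a call that held under all 13 alternatives, and Pfkp differed by -0.16 (SE 0.05; edgeR adjusted p = 0.0578), which passed when either siControl library was left out.

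The third phosphofructokinase gene, the muscle type Pfkm, was not among the members but belongs to the same tetrameric enzyme. It stood at 97.9 ± 5.89 CPM in siControl, 90.3 ± 1.55 in siJunb and 116 ± 0.605 in siH1f0 (SD, n = 2), and rose by 0.24 in siH1f0 (SE 0.06; edgeR adjusted p = 0.037), a call that held under 7 of the 13 alternatives (edgeR adjusted p up to 0.311). Per kilobase, Pfkp made up 40.7% ± 0.730 of phosphofructokinase in siControl, 47.7% ± 0.554 in siJunb and 38.9% ± 0.820 in siH1f0. Pfkl made up 29.8% ± 0.398, 24.96% ± 0.0730 and 29.2% ± 0.154, and Pfkm 29.5% ± 0.331, 27.4% ± 0.627 and 31.9% ± 0.666. The siJunb libraries thus had a larger Pfkp share than any other library. The Pfkp to Pfkl ratio was 1.90 and 1.92 in the siJunb libraries and between 1.30 and 1.40 in the other 4. The summed level of the 3 genes was nearly the same in siControl and siJunb, 109 ± 5.31 and 108 ± 0.618 CPM per kilobase, and was 119 ± 3.11 in siH1f0. Part of Pfkp lies opposite Pitrm1 on the other strand (17.1% of the 50-base windows of the Pfkp transcript), and the strand setting of the counting is not given in the sources used here. Pitrm1 itself ran from 184 to 199 CPM, with a siJunb difference of 0.05 (edgeR adjusted p = 0.552).

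**Figure D3:**
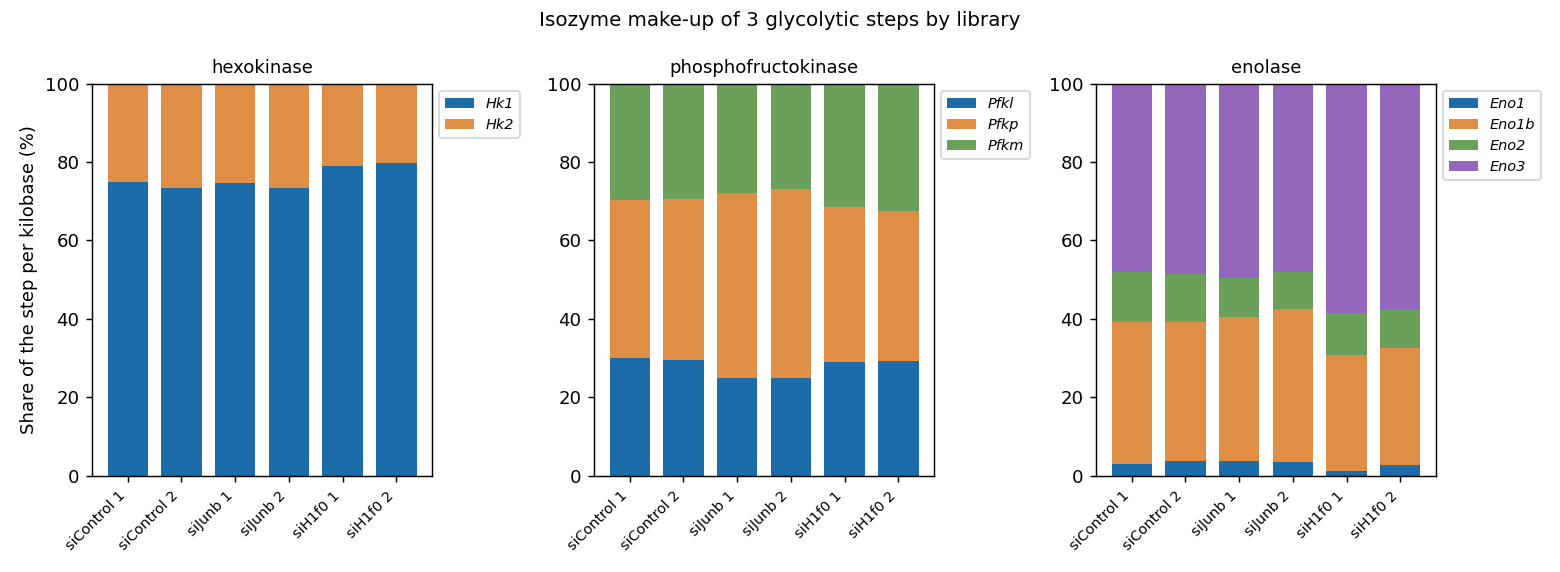
Share of each isozyme gene in the summed level per kilobase (vertical axis, percent) of hexokinase, phosphofructokinase and enolase, 1 bar per library; genes under 1% of a step in every library are not drawn. The Pfkp share is 47.3% and 48.0% in the siJunb libraries against 38.3% to 41.2% elsewhere, and the Hk2 share is 20.7% and 20.1% in siH1f0 against 24.9% to 26.5% elsewhere.

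Aldoa (chr7:126795234-126800994, minus strand) splits fructose-1,6-bisphosphate into 2 triose phosphates and is the main aldolase of muscle and fibroblasts. It stood at 490 and 455.5 CPM in siControl, 638 and 636 in siJunb, and 464 and 462 in siH1f0. The siJunb libraries were above all the others, and the siH1f0 libraries lay within the range of siControl. Aldoa rose by 0.43 on the log2 scale in siJunb (SE 0.05; edgeR adjusted p = 0.00118), differed by -0.03 in siH1f0 (SE 0.05; edgeR adjusted p = 0.765), and was lower in siH1f0 than in siJunb by -0.46 (SE 0.05; edgeR adjusted p = 0.000338). The siJunb difference was 0.48 and the siH1f0 difference 0.024 without the first siControl library. The siH1f0 difference was -0.087 without the second. Among the members' calls against siControl, the siJunb call of Aldoa was the only one that held under all 13 alternatives. Its call between the knockdowns held under all 13 as well. Aldoa made up over 99.9% of the aldolase level per kilobase in every library, so the step as a whole went from 259 ± 13.3 CPM per kilobase in siControl to 349 ± 0.820 in siJunb, with 254 ± 0.772 in siH1f0. Pfkl, 1 of the 3 genes of the step before it, fell in siJunb. The ratio of Aldoa to Pfkl per kilobase was 8.02 ± 0.0873 in siControl and 12.9 ± 0.141 in siJunb. The summed phosphofructokinase level was nearly the same in both, 109 ± 5.31 and 108 ± 0.618 CPM per kilobase. Part of the shift in that ratio is therefore the fall of Pfkl.

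Pgk1 (chrX:106187100-106203699, plus strand) makes the first ATP of the pathway. Its level was 284 and 268 CPM in siControl, 304 and 311 in siJunb, and 265 and 272 in siH1f0. The siJunb pair was the highest, and the siH1f0 pair overlapped siControl. The siJunb difference of 0.16 (SE 0.05) just missed the threshold (edgeR adjusted p = 0.0583) and passed it when no count filter was used. The siH1f0 difference was -0.04 (SE 0.05; edgeR adjusted p = 0.699). Leaving out the first siControl library gave 0.20 for siJunb and 0.0055 for siH1f0, and leaving out the second gave -0.083 for siH1f0. Pgk1 was lower in siH1f0 than in siJunb by -0.19 (SE 0.05; edgeR adjusted p = 0.0194), a call lost when any siJunb or siH1f0 library was left out and with total counts only (edgeR adjusted p up to 0.194). Of the 50-base windows of the Pgk1 transcript, 68.0% also occur in other genes, nearly all in the processed pseudogene Pgk1-rs7, and how the authors counted reads that match several places is not given in the sources used here.

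Eno1 (chr4:150236708-150248879, plus strand), usually the abundant enolase of growing cells, was the lowest member by far. It stood at 3.38 and 3.735 CPM in siControl, 4.55 and 4.12 in siJunb, and 1.31 and 3.02 in siH1f0, from 79 to 294 counts a library. The siH1f0 libraries differed from each other by -1.20 on the log2 scale, the first lower, and both lay below the rest. Neither knockdown passed the test against siControl: 0.29 for siJunb (SE 0.28; edgeR adjusted p = 0.516) and -0.70 for siH1f0 (SE 0.30; edgeR adjusted p = 0.205). They were 0.22 and -0.77 without the first siControl library. The siH1f0 difference passed without a count filter. It was -0.23 without the first siH1f0 library and -1.44 without the second. Eno1 was lower in siH1f0 than in siJunb by -0.99 (SE 0.30; edgeR adjusted p = 0.0397). Without the first siH1f0 library that difference was -0.52, without the second it was -1.72, and the call was lost without either siJunb library or the first siH1f0 library.

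The low level of Eno1 has to be read with its near-copy Eno1b. Of the 50-base windows of the Eno1 transcript, 58.1% occur in other genes and 56.3% in Eno1b, while 84.5% of the Eno1b windows occur elsewhere, so reads from these genes cannot be assigned between them from the table. Eno1b stood at 73.6 ± 5.65 CPM in siControl, 85.3 ± 0.363 in siJunb and 64.0 ± 3.06 in siH1f0 (SD, n = 2). Its siJunb difference was 0.21 (SE 0.07; edgeR adjusted p = 0.0572) and its siH1f0 difference -0.20 (SE 0.07; edgeR adjusted p = 0.106), and it was lower in siH1f0 than in siJunb by -0.42 (SE 0.07; edgeR adjusted p = 0.00233). The sum of Eno1 and Eno1b was 81.0 and 73.4 CPM in siControl, 89.6 and 89.7 in siJunb, and 63.1 and 69.1 in siH1f0, with no overlap between the groups. Eno3, the muscle enolase, stood at 46.6 ± 2.72 CPM in siControl and 58.6 ± 1.40 in siH1f0 and rose there by 0.33 (SE 0.07; edgeR adjusted p = 0.0242). That call held under 8 of the 13 alternatives (edgeR adjusted p up to 0.228). Per kilobase, Eno3 took 48.3% of the step in siControl, 48.6% in siJunb and 57.9% in siH1f0, Eno1b 35.9%, 37.8% and 29.7%, and Eno1 3.35%, 3.69% and 1.92%. The share of Eno1b depends on its deposited length of 3411 bases, against 1791 in its annotated transcript. By count alone, Eno1b stood above Eno3, with 50.9% of the step in siControl, 53.5% in siJunb and 44.6% in siH1f0. Eno3 then took 32.2%, 32.35% and 40.9%.

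Pkm (chr9:59656576-59679372, plus strand) makes the last ATP of the pathway and was the most abundant member. It stood at 1377 and 1286 CPM in siControl, 1527 and 1536 in siJunb, and 1500 and 1507 in siH1f0. Both knockdown groups lay above both siControl libraries and close to each other. Pkm rose by 0.20 in siJunb (SE 0.05; edgeR adjusted p = 0.0214), and its siH1f0 difference of 0.17 (SE 0.05; edgeR adjusted p = 0.0604) did not pass. Without the first siControl library these were 0.25 and 0.23, and the siH1f0 difference was 0.12 without the second. With all 6 libraries, the siH1f0 difference passed the threshold when no count filter was used and with DESeq2 in place of edgeR. The siJunb call was lost with total counts only, with only the 4 libraries compared, and when any siJunb or siH1f0 library was left out (edgeR adjusted p up to 0.182). Between the knockdowns Pkm differed by -0.03 (SE 0.05; edgeR adjusted p = 0.719). The table counts whole genes, so the M1 and M2 splice forms of Pkm were not told apart, and 34.4% of its 50-base windows occur in other genes, mostly processed pseudogenes.

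Ldha (chr7:46842274-46855627, plus strand) closed the list with 256 and 233 CPM in siControl, 300.4 and 296 in siJunb, and 268.5 and 270 in siH1f0. The 3 groups did not overlap, with siJunb highest and siControl lowest. Ldha rose by 0.28 in siJunb (SE 0.05; edgeR adjusted p = 0.00984) and by 0.35 without the first siControl library, and the call was lost when either siJunb library was left out (edgeR adjusted p up to 0.116). The siH1f0 difference was 0.14 (SE 0.05; edgeR adjusted p = 0.171), or 0.21 without the first siControl library. Between the knockdowns the difference was -0.15 (SE 0.05; edgeR adjusted p = 0.0766), which passed when either siControl library was left out. Ldhb, the form that favours lactate use in heart, stayed at 0.455 to 0.823 CPM, so Ldha made up at least 99.6% of lactate dehydrogenase per kilobase in each group's mean.

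Within a library the order of the members per kilobase, averaged over the 6 libraries, was Pkm (560 CPM per kilobase), Aldoa (287), Pgk1 (156), Ldha (140.2), Gpi1 (93.3), Pfkp (47.3), Hk1 (39.0), Pfkl (31.4), Hk2 (12.4) and Eno1 (1.89). The members that act after phosphofructokinase thus stood above the hexokinases and phosphofructokinases, apart from Eno1. Against the spread over libraries, Hk2 varied 1.44-fold from lowest to highest, Aldoa 1.40-fold and Pfkl 1.32-fold, while Hk1, Gpi1, Pgk1, Pkm, Pfkp and Ldha stayed between 1.08-fold and 1.29-fold. The first siControl library read higher than the second for 8 of the 10 members, Hk2 and Eno1 being the exceptions, by up to 0.13 on the log2 scale (Ldha). Without it, 8 members were called for siJunb (7 higher, 1 lower) and 5 for siH1f0 (3 higher, 2 lower), with the lone siControl library assumed to vary like the other groups, while the share of all genes called went to 33.6% and 21.0%. Beside the siJunb calls, 3 of the 7 cardiomyocyte markers tested were called lower in siJunb, Actc1 (log2 -2.43), Myl7 (-1.63) and Tnni3 (-0.92), and the list's median was -0.92. The summed level, most of it Tnnt2 (log2 0.02, not called), was 120.8 and 121.7 CPM in siJunb, 143 and 162 in siControl and 159 and 168 in siH1f0. Of the leukocyte markers, Csf1r was higher in siJunb, at 0.591 and 0.691 CPM against 0.253 and 0.228 in siControl. In siH1f0 Tnni3 was called higher (log2 0.68). Of the 9 fibroblast markers tested, 2 were called higher and 0 lower in each knockdown. They were Dcn and Pdgfra in siJunb, and Dcn and Col1a2 in siH1f0. Dcn stood at 5.21 and 4.27 CPM in siControl, 15.05 and 15.49 in siJunb, and 7.43 and 7.56 in siH1f0. Of 3 neuronal markers tested, Tubb3 was called lower in both knockdowns. The part of these markers in the differences was not tested. In bulk RNA, fewer cells of a type and less RNA per cell cannot be told apart.

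Of the list genes outside the members, 6 of 33 siJunb calls, 2 of 14 siH1f0 calls and 20 of 53 direct calls held under all 13 alternatives. The fit without the first siControl library is 1 of the 13. Its passes against siControl are not read as evidence, since the p-values rest there on the knockdown pairs alone. The other enzymes of the same pathway, a list of 22 genes with 16 tested, had 1 higher and 3 lower calls in siJunb. Phosphoglycerate mutase Pgam1 rose in siJunb from 101 ± 4.95 to 132.5 ± 2.28 CPM (log2 0.39, SE 0.06; edgeR adjusted p = 0.00306), and the testis form Gapdhs and Bpgm, which makes 2,3-bisphosphoglycerate, were among the lower. Of the 50-base windows of the Pgam1 transcript, 41.5% also occur in other genes, all of them in the processed pseudogene Pgam1-ps2. Bpgm fell by 0.31 (edgeR adjusted p = 0.0193). The list's median log2 difference in siJunb was 0.02. In siH1f0, Adpgk, which phosphorylates glucose with ADP, Pfkm and Eno3 rose, and triose phosphate isomerase (Tpi1) fell by 0.27 (edgeR adjusted p = 0.0452), from 254 ± 23.6 to 210.5 ± 8.07 CPM; the list's median there was 0.12. The Tpi1 call held under 6 of the 13 alternatives (edgeR adjusted p up to 0.368), and its difference was -0.17 without the first siControl library. In the direct comparison 4 were higher in siH1f0 and 3 lower, Pgam1, Tpi1 and Eno1b among the lower. Gapdh stood at 41.6 to 50.7 CPM and was not called in any comparison; 82.5% of its 50-base windows also occur in other genes, 213 of them pseudogenes.

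Around the pathway, a list on glucose and lactate transport (12 genes, 9 tested, with the transporter chaperone Bsg and the inositol transporter Slc5a3 among the 12) had 1 call in siJunb and 0 in siH1f0 (medians -0.04 and 0.08). The lactate and pyruvate transporter Slc16a1 rose in siJunb from 121 and 125 CPM to 183 and 182, a log2 difference of 0.57 (SE 0.05; edgeR adjusted p = 0.000214). The main fibroblast glucose transporter gene Slc2a1 stood at 28.2 to 33.6 CPM in all libraries and was not called (siJunb log2 0.19; edgeR adjusted p = 0.0646). Among 7 genes that act on fructose bisphosphates around the phosphofructokinase step (Pfkfb1 to Pfkfb4, Tigar, Fbp1 and Fbp2; 5 tested), Tigar, whose product breaks down the activator fructose-2,6-bisphosphate, rose in siJunb from 45.5 ± 0.0291 to 59.2 ± 0.975 CPM (log2 0.38, SE 0.05; edgeR adjusted p = 0.00318). None of the 5 was called in siH1f0, and Tigar and Pfkfb3, a kinase that makes the activator, were lower in siH1f0 than in siJunb (edgeR adjusted p = 0.00154 and 0.0495). Between the knockdowns the Tigar call held under all 13 alternatives and the Pfkfb3 call under 3 (edgeR adjusted p up to 0.268).

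Pyruvate entry into mitochondria (14 genes, all tested) had 5 genes higher and 1 lower in siJunb, with a median of 0.14. The 5 were all subunits of the pyruvate dehydrogenase complex, Pdha1, Pdhb, Pdhx, Dlat and Dld, and the lower one was Pdk2, a kinase that switches that complex off. Of these calls, Pdha1 held under all 13 alternatives and Pdhx and Pdk2 under 12. Pdhb and Dld held under 8 and Dlat under 6 (edgeR adjusted p up to 0.258). Pdha1 rose from 191 ± 5.90 to 252 ± 0.455 CPM (log2 0.40, SE 0.05; edgeR adjusted p = 0.00126), and Pdhx by 0.34 (edgeR adjusted p = 0.00233). Pdk2 fell from 16.5 and 16.3 CPM to 12.3 and 11.6 (log2 -0.45, SE 0.07; edgeR adjusted p = 0.00493). The other Pdk genes of the list were not called in siJunb. Pdk1 differed by 0.22 (edgeR adjusted p = 0.0966) and Pdk4 by 0.29 (edgeR adjusted p = 0.0621), both upward. Pdk3, the most abundant of them, stood at 49.2 CPM in siControl and 47.3 in siJunb (log2 -0.06; edgeR adjusted p = 0.537). In siH1f0 pyruvate carboxylase Pcx alone rose, by 0.29 (edgeR adjusted p = 0.0457), a call that held under 7 of the 13 alternatives (edgeR adjusted p up to 0.32), with a list median of 0.10. In the citrate cycle (18 genes, all tested), Idh3b, Sdha and Mdh1 rose and Idh2 fell in siJunb (median 0.05), and 0 genes were called in siH1f0. The Sdha and Mdh1 calls held under 6 of the 13 alternatives each (edgeR adjusted p up to 0.255), and those of Idh3b and Idh2 under 11. Idh2, the NADP-dependent mitochondrial isocitrate dehydrogenase, fell from 491 ± 31.2 to 388 ± 1.40 CPM (log2 -0.34; edgeR adjusted p = 0.0049).

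In the pentose phosphate pathway (8 genes), the entry enzyme G6pdx rose in siJunb from 53.6 and 55.9 CPM to 74.8 and 72.3 (log2 0.43, SE 0.05; edgeR adjusted p = 0.00175), and transaldolase Taldo1 fell by 0.39 (edgeR adjusted p = 0.0102). In glycogen and glucose phosphate turnover (14 genes, 13 tested), Gys1, Pygb, Pgm2 and Ugp2 rose in siJunb and 0 fell. Pgm2 rose by 0.32 (edgeR adjusted p = 0.00481) and muscle-type glycogen synthase Gys1 by 0.23 (edgeR adjusted p = 0.035). The list median was 0.08, and 8.63% of all tested genes were called higher. Of these calls, Pgm2 held under 11 of the 13 alternatives and Gys1 under 6. Pygb and Ugp2 held under 5 each (edgeR adjusted p up to 0.281). In the serine, hexosamine and glycerol branches (10 genes), Gfpt1, the first enzyme of hexosamine synthesis, fell in siJunb from 97.3 and 114 CPM to 73.1 and 71.4 (log2 -0.55, SE 0.07; edgeR adjusted p = 0.00241), and Gpd1l rose by 0.39 (edgeR adjusted p = 0.00374). None of the genes tested in these branches was called in siH1f0.

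**Figure D4:**
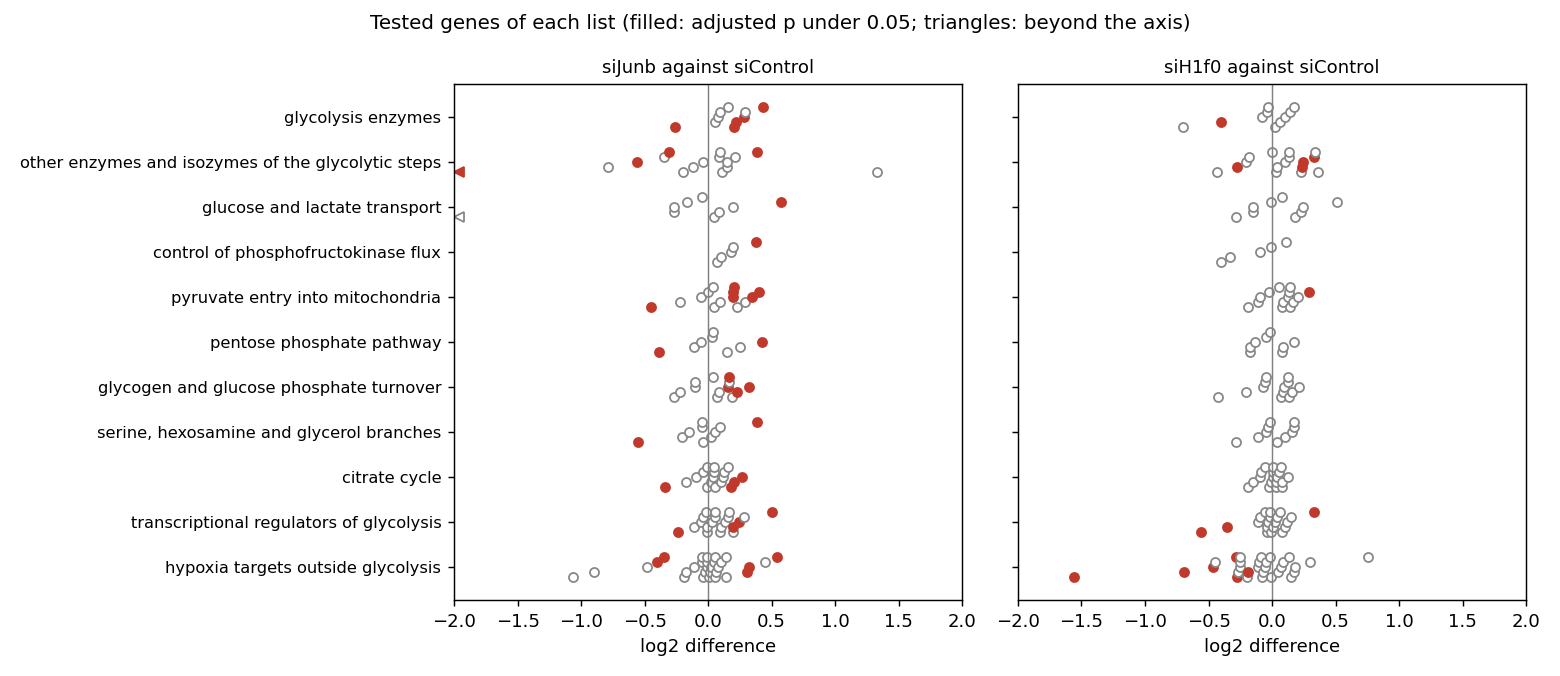
Log2 differences (horizontal axis) of the tested genes of each list, 1 point a gene, for siJunb and siH1f0 against siControl; filled points have an edgeR adjusted p under 0.05 and triangles lie beyond the axis. The member row is shifted to the right in siJunb (median 0.18) and centred near 0 in siH1f0 (median -0.0036), and the leftmost filled point of the hypoxia row in siH1f0 is Egln3 at -1.56.

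The transcription factors known to act on glycolysis, and hypoxia targets from other pathways, were read from the same fit. Of 22 regulators (20 tested), Hif1an, Klf4 and Klf10 rose and Vhl fell in siJunb, and Klf10 rose while Arnt and Myc fell in siH1f0 (medians 0.07 and -0.0089). Hif1an, which hydroxylates and restrains hypoxia-inducible factors, went from 68.2 ± 4.19 to 96.7 ± 0.0766 CPM in siJunb (log2 0.50; edgeR adjusted p = 0.00152), and Vhl, which targets them for breakdown, fell by 0.24 (edgeR adjusted p = 0.0193). Hif1a was not called in any comparison (278 to 314 CPM). Myc stood at 84.2 and 80.0 CPM in siControl, 87.8 and 79.6 in siJunb, and 57.2 and 54.1 in siH1f0, a fall of -0.56 in siH1f0 (SE 0.06; edgeR adjusted p = 0.00188). Arnt, the partner of hypoxia-inducible factors, fell there by 0.36 (edgeR adjusted p = 0.00889). Of 30 hypoxia targets outside glycolysis, all tested, 3 were higher (Slc6a6 and Lox among them) and 2 lower (Vegfa and Mxi1) in siJunb, and 0 higher and 6 lower in siH1f0 (medians -0.0017 and -0.08). The 6 were Egln3, Ndrg1, Ddit4, Ero1l, Ak4 and Mif. Egln3, an oxygen-sensing hydroxylase, stood at 11.2 and 12.1 CPM in siControl and 4.12 and 3.76 in siH1f0 (log2 -1.56, SE 0.10; edgeR adjusted p = 0.000107), and Ak4 fell by 0.69 (edgeR adjusted p = 0.0356). The Egln3 and Myc calls held under all 13 alternatives and the Ak4 call under 6. Leaving out the first siControl library, the siJunb differences of Slc6a6 and Lox went from 0.30 and 0.32 to 0.19 and 0.20.

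Genes of like profile were sought by correlating each gene's log2 CPM over the 6 libraries with the mean centred profile of the members, among 9901 tested genes with a mean of at least 5 CPM. The closest to the 10-member profile were Ppt1 (Pearson r = 0.997), Dok1 (0.994), Rpl7a (0.992), Cib1 (0.991) and Pxdc1 (0.991), and 667 genes had an r over 0.9. With Eno1 left out of the profile, which was decided after its values were seen, the closest were Ube2z (0.998), Tmbim6 (0.997), Adipor1 (0.997), Gtf2f2 and Clp1, and 628 genes passed 0.9. Eno1 varied 3.47-fold over the libraries, more than any other member. All points share the same 6 libraries and their depth, so the r values are a description only.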

How the data were processed

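Poly(A) RNA was measured in 6 libraries, 2 each of siControl, siJunb and siH1f0, grouped by their labels. The authors deposited raw whole-number read counts per gene, with a gene length used here for levels per kilobase. HISAT2, Subread, featureCounts and mm10 are named, without versions, per the submitters' processing notes; the strand, annotation and multi-mapping settings are stated in none of the sources read. In R 4.3.3, counts were filtered (filterByExpr), scaled by TMM and tested with edgeR 4.0.16 (quasi-likelihood F test, group only, all 6 libraries, 3 residual degrees of freedom, Benjamini-Hochberg over 13427 genes, threshold 0.05). The method was tested on simulated data. SEs are the log2 difference divided by the square root of F. At an unadjusted p under 0.05 there were 4263, 3060 and 5163 genes for siJunb, siH1f0 and the direct comparison. Alternatives were RLE factors, total counts only, no count filter, DESeq2 1.42.0, limma-voom (limma 3.58.1), a replicate block, the 4 libraries compared alone, and each library left out. Members, lists and tests were chosen with earlier results of these data known. Named genes were all members and, per list, up to 4 called genes by smallest p in any comparison, plus all tested isozymes; a gene beyond this is named where a count of 6 or fewer calls is spelled out or it is a known part of the step, chosen after its values were seen. Shared sequence was counted over 50-base windows of 1 GENCODE transcript per gene. For the members whose shared windows are not given above, the share was 25.3% for Gpi1, 16.6% for Ldha and 13.5% for Aldoa. It was 2.55% for Hk1, 0.0543% for Pfkl and 0% for Hk2. Some genes that met the rule for named genes are left out of the text.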

Additional observations from a re-analysis of the deposited data

How the results depend on the processing

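Leaving out 1 library at a time gave 352 to 5521 genes and 1 to 8 members called for siJunb, 116 to 4932 genes and 0 to 6 members for siH1f0, and 1304 to 6435 genes and 3 to 8 members for the direct comparison; the low ends came without a knockdown library and the high ends without a siControl library. With only the 4 libraries compared, the calls were 1094 genes (8.26%) and 2 members for siJunb, 325 genes (2.44%) for siH1f0 and 6416 genes (48.6%) for the direct comparison. Without a count filter, 1921 genes (10.8%) and 3 members (Hk2, Eno1 and Pkm) were called for siH1f0. DESeq2 called 1201 genes (8.94%) and 2 members (Hk2 and Pkm) there. The paired fit with the replicate number as a block called 1684, 550 and 2919 genes and 5, 1 and 5 members for siJunb, siH1f0 and the direct comparison. Of the list genes outside the members, the block kept 25 of 33 siJunb, 7 of 14 siH1f0 and 47 of 53 direct calls. The labels share only a number, and libraries with the same number deviated together with r of 0.048, -0.041 and 0.063. With total counts only, the split of higher and lower calls was 884 and 1369 for siJunb (1159 and 1050 with TMM), 407 and 532 for siH1f0 (305 and 574), and 2222 and 1340 for the direct comparison (1637 and 1847).

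Reversed signs were all of members that were not called. In siH1f0 against siControl, leaving out 1 library moved Aldoa between -0.087 and 0.024, Pgk1 between -0.083 and 0.0055, and Hk1 between -0.018 and 0.058. In the direct comparison, total counts only gave 0.016 for Hk1 and 0.024 for Pkm. Of the members' values under the 13 alternatives, 325 kept direction and side of the threshold, 26 passed it newly, 34 lost it and 5 reversed. For the other named genes, 654 kept both and 126 lost the call. By count alone, without gene length, the Pfkp share of its step was 45.9% in siControl, 53.1% in siJunb and 44.1% in siH1f0, and the Hk2 share 29.7%, 29.96% and 23.9%, in the same order of groups as per kilobase. The causes of the changes above were not tested. Depth was lowest for Eno1, with 79 to 294 counts a library, whereas the other 9 members had at least 3366 counts (Hk2).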
